A study of Mus musculus with 12 samples.

Results

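Of 34 genes listed as markers of the epicardium, of the cells that leave it, or of valve and cushion mesenchyme, 33 had a row among the 38293 genes of the mouse count table. They comprised 14 epicardial and 19 mesenchymal genes. Muc16, a mucin of the mesothelial surface, had no row under its annotated identifier and is not analysed here. The list is given by gene name and sets no cut on a measured value. It was chosen with earlier results of these data known, so counts over it carry no test. Low counts removed Twist2, and 32 members were among the 13964 genes tested.

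RNA was measured in the ventricles of mouse embryos at E15.5, counted in days of gestation, in 12 libraries of 3 pools per genotype, each pool holding 4 pairs of ventricles. The first group, the Mib1 mutant, carried Mib1_R530X over Mib1_flox with Tnnt2-Cre/+. Its Cre control carried Mib1_flox/+ with Tnnt2-Cre/+, and so shared the transgene and a floxed allele. The second tested genotype, the triple heterozygote, carried Mib1_R530X/+ with a missense allele of Asxl3 and V150I of Apcdd1, and no Cre, and was set against WT. The labels write the Asxl3 allele as M1415V in the genotype field and as M1361V in the protocol. Mib1 encodes an E3 ubiquitin ligase that lets Notch ligands signal, R530X is a premature stop, and Tnnt2-Cre drives recombination from a cardiomyocyte promoter. The stop allele was thus present in every cell of the Mib1 mutant, epicardial and mesenchymal cells included, whereas deletion of the floxed allele depended on Tnnt2-Cre. The series addresses alleles found in hereditary cardiomyopathy and bicuspid aortic valve. How far valve, atrial or outflow tissue was trimmed from the ventricles is not stated in the labels.

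The epicardium is the mesothelial sheet on the outside of the heart. It makes retinoic acid, and some of its cells undergo epithelial-mesenchymal transition, enter the muscle and become fibroblasts and mural cells, a passage that depends on PDGF receptors. Valve and cushion mesenchyme arises mainly from endocardium by a similar transition and matures under Sox9, Scx, Twist1 and Msx genes.

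Library totals ranged from 10103548 to 22157720 estimated reads, and 1 read in the smallest library was worth 0.099 CPM (counts-per-million of the library total, scaled by TMM factors). Mib1 itself stood at 54.8, 50.1 and 51.8 CPM in the Mib1 mutant pools, against 108, 107 and 101 CPM in pools of the Cre control. It had 74.0, 57.9 and 74.1 CPM in the triple heterozygote, against 145, 126 and 136 CPM in WT. Mib1 thus fell by 1.01 ± 0.09 on the log2 scale (SE, adjusted p = 4.75e-05) and by 0.99 ± 0.09 (adjusted p = 0.000276). Replicate 1 of the Mib1 mutant and replicate 1 of the Cre control had 0.095 and 0.387 CPM of Xist, the transcript of the inactive X, against 71.5 to 458 CPM in the other 10 pools.

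Markers of other cells moved with some genotypes. The 10 cardiomyocyte genes summed to 38912 to 47915 CPM in the Mib1 mutant and 48188 to 53457 CPM in the Cre control, and 8 of the 10 had negative log2 fold changes, none past the threshold. The 10 leukocyte genes summed to 55.5 to 71.5 CPM in the Mib1 mutant and 86.5 to 111 CPM in the Cre control, with 2 of 10 lower past the threshold. Erythroid genes, 9 of 10 with a row and 8 tested, summed to 7116 to 8334 CPM in the triple heterozygote and 4382 to 5155 CPM in WT, with 2 higher past the threshold. Among 12 other epithelial genes, 8 stayed under 1 CPM in every pool, with Epcam at most at 0.19 CPM and Cdh1 at most at 0.892 CPM. The 12 summed to 10.3 to 15.4 CPM in the Mib1 mutant, 8.12 to 9.47 in the Cre control, 9.71 to 16.3 in the triple heterozygote and 7.80 to 11.6 in WT. All 6 lung genes stayed under 1 CPM, 1 of them at 0. The 8 liver genes summed to 1.86 to 2.09 CPM in the Mib1 mutant, 2.42 to 7.30 in the Cre control, 2.67 to 4.46 in the triple heterozygote and 4.60 to 26.0 in WT. The part of these cells in the results for members was not tested, except where a value is given beside a result. In bulk tissue, fewer cells of a type and less RNA per cell cannot be told apart.

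Every member with a row was detected in every pool. Dpt, which encodes the matrix protein dermatopontin, had the highest level, with a mean of 23.1 RPKM (reads per kilobase of exon, scaled to library size as in CPM) and a range of 14.8 to 28.1 over the 12 pools. Pdgfrb, a PDGF receptor of mural cells and their precursors, followed at 14.1 RPKM, and the epicardial transcription factors Tbx18 and Tcf21 stood at 13.2 and 10.9 RPKM. The defining epicardial markers were thus present: Wt1 averaged 4.61 RPKM, Aldh1a2 8.88, Msln 7.93 and Upk3b 7.80. The ranges of every pair of neighbours in the order of mean RPKM overlapped. The lowest levels were those of Aldh1a1 (0.559 RPKM), Msx2 (0.437 RPKM) and Twist2 (0.236 RPKM). Of the mesenchymal regulators, Meox1, Snai2 and Prrx2 averaged 6.88, 6.04 and 4.65 RPKM, above Sox9 at 3.32 and Scx at 1.57 RPKM.

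**Figure D1:**
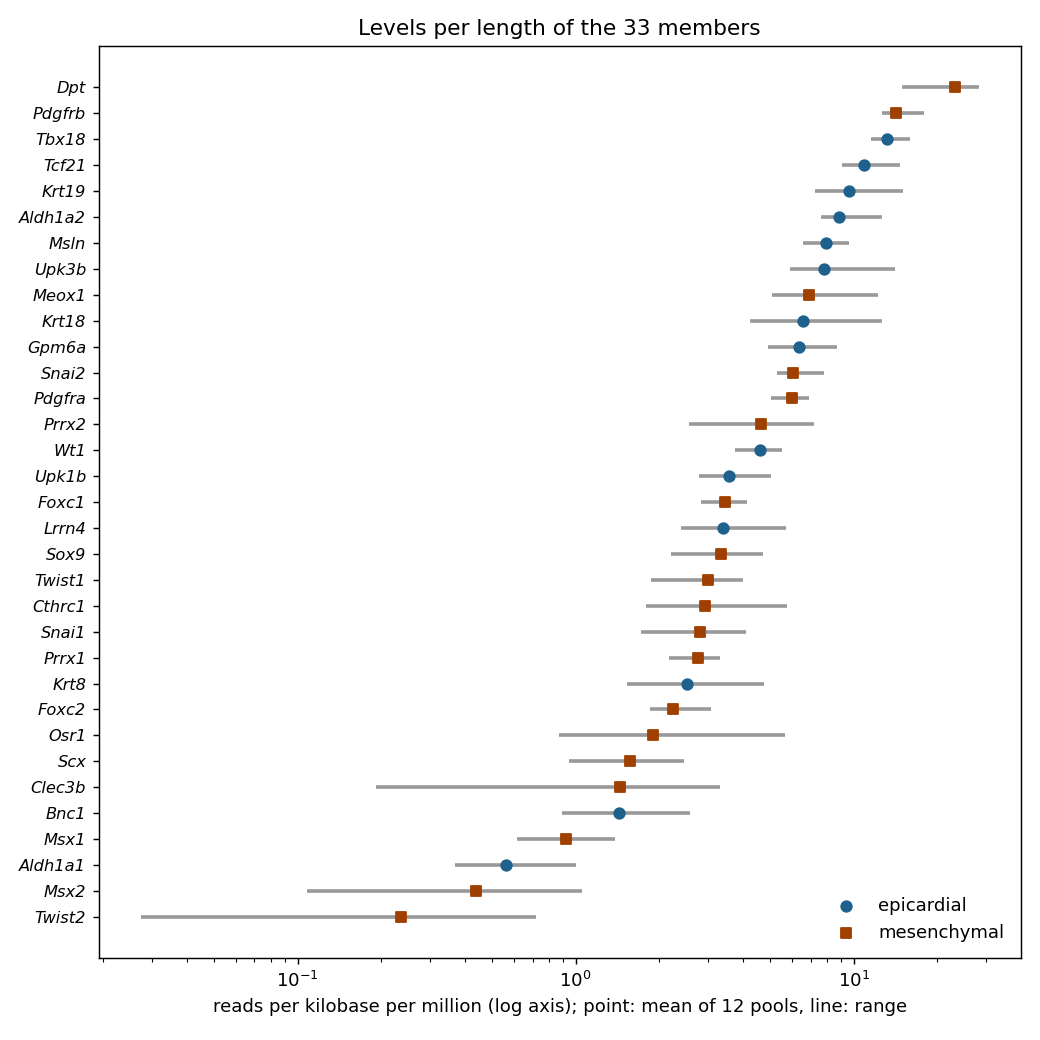
Levels per length of the 33 members in RPKM, on a log axis. Points are means of 12 pools and lines run from the lowest to the highest pool; Dpt is highest at 23.1 and Twist2 lowest at 0.236.

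In Mib1 mutant ventricles, 2 members rose past the threshold, Krt18 and Prrx2, and none fell. Across all 13964 genes, 0.909% were called higher and 0.594% lower in the same comparison (edgeR's quasi-likelihood test, Benjamini-Hochberg adjusted p under 0.05). The members called came to 1 or 2 when any single pool was left out, and to 0 without the pools low in Xist. At an unadjusted p under 0.05, 12 of the 32 tested members were higher and 1 was lower, against 7.35% and 6.65% of all genes. Log2 fold changes were positive for 26 of 32 members, with a median of 0.20 against 0.00 over all genes, of which 51.2% were positive. The 3 Mib1 mutant pools lay entirely above the 3 Cre control pools for 11 members, and for no member below them. Over all genes 8.86% lay entirely above and 7.75% entirely below. The 11 comprised all 3 keratins, 8 of 18 tested mesenchymal genes and 0 of the 11 other tested epicardial genes.

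**Figure D2:**
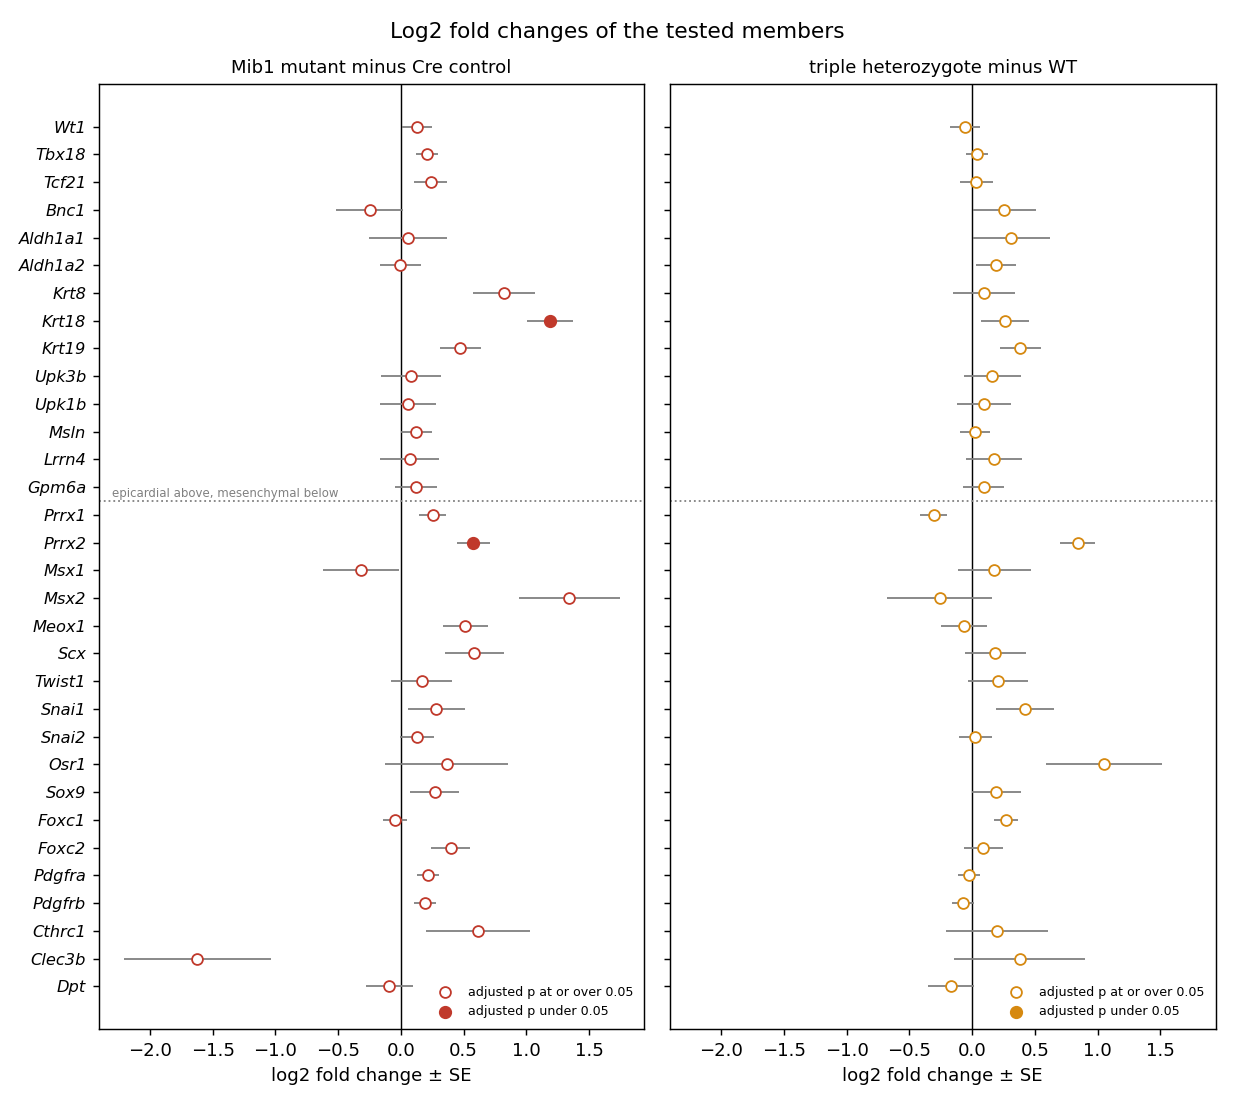
Log2 fold changes with standard errors for the 32 tested members, epicardial above the dotted line and mesenchymal below it, for Mib1 mutant over Cre control (left) and triple heterozygote over WT (right). Filled points, Krt18 and Prrx2 in the left panel, passed the adjusted threshold; no member did in the right panel.

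Among the 14 tested epicardial members, the 3 keratins were those whose Mib1 mutant and Cre control pools did not overlap, and Krt18 passed the test. Pools of Krt7, a keratin that is not a member, overlapped. They had 7.32, 10.3 and 5.95 CPM in the Mib1 mutant, against 6.28, 5.14 and 5.61 CPM in the Cre control. Krt18, a type I keratin that pairs with Krt8 in filaments of simple epithelia and mesothelium, had 16.7, 18.2 and 11.6 CPM in the Mib1 mutant pools, against 6.76, 7.53 and 6.09 CPM in the Cre control pools. Every Mib1 mutant pool was above every pool of the other 3 genotypes. The means were 15.48 ± 3.48 CPM in the Mib1 mutant and 6.79 ± 0.722 CPM in the Cre control (SD, n = 3 each), a log2 fold change of 1.19 ± 0.18 (SE) or 2.28-fold, with an adjusted p of 0.00322. In the triple heterozygote Krt18 had 6.71, 8.77 and 10.01 CPM, against 7.37, 7.66 and 6.25 CPM in WT. Those pools overlapped, and the log2 fold change was 0.26 ± 0.19 (adjusted p = 0.672). The difference between both effects was 0.93 ± 0.26 on the log2 scale and did not pass the adjusted threshold (adjusted p = 0.167). Without replicate 1 of the Mib1 mutant and of the Cre control, the pools low in Xist, the log2 fold change of Krt18 was 1.13 and the call was lost (adjusted p = 0.0547).

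Krt8, the type II partner, whose exons overlap those of a gene on the opposite strand, had 5.32, 9.32 and 5.95 CPM in the Mib1 mutant, against 2.995, 4.69 and 3.92 CPM in the Cre control. The pools did not overlap, but the log2 fold change of 0.82 ± 0.25 did not pass after adjustment over all genes (adjusted p = 0.125, edgeR). Triple heterozygote pools had 3.90, 4.47 and 5.55 CPM of Krt8, against 3.29, 5.05 and 4.60 CPM in WT, and these ranges overlapped. Krt19, a type I keratin of epicardium and other simple epithelia, had 19.9, 27.9 and 17.4 CPM in the Mib1 mutant, against 15.7, 15.1 and 16.1 CPM in the Cre control. Its pools were also apart, with a log2 fold change of 0.47 ± 0.16 (adjusted p = 0.181). Triple heterozygote pools had 16.2, 19.3 and 22.5 CPM of Krt19, against 13.4, 16.9 and 14.0 CPM in WT, overlapping by a narrow margin (log2 fold change 0.39 ± 0.16, adjusted p = 0.565). Replicate 2 of the Mib1 mutant was the highest of the 12 pools for all 3 keratins. Without it, Krt18 still rose (log2 fold change 1.06, adjusted p = 0.0111), while the log2 fold changes of Krt8 and Krt19 were 0.54 and 0.25.

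No mesothelial surface gene passed the threshold, and Krt18 was high relative to them. As a share of the summed CPM of Upk3b, Upk1b, Msln, Lrrn4 and Gpm6a, Krt18 came to 18.4%, 20.3% and 13.6% in the Mib1 mutant pools, against 7.82%, 9.90% and 7.17% in the Cre control pools. The share was 8.28%, 9.71% and 7.19% in the triple heterozygote, against 8.90%, 6.68% and 7.12% in WT. The 3 Mib1 mutant pools lay above the other 9 pools. The summed surface genes themselves were at 85.1 to 90.7 CPM in the Mib1 mutant and 76.1 to 86.5 CPM in the Cre control. This ratio was chosen after the values had been seen and carries no test.

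Krt8 and Krt18 lie side by side on chromosome 15 and are transcribed away from each other, with start sites 23698 bases apart in GENCODE M21. Their promoter windows are shown because these partner genes had the 2 largest log2 fold changes among epicardial members of the Mib1 mutant. Each runs from 250 bases before to 50 after the start site of RefSeq, which differs from that of GENCODE, on the gene's own strand (GRCm38.p6): chr15:102027966-102028265, plus strand, for Krt18 and chr15:102004293-102004592, minus strand, for Krt8.
Krt18: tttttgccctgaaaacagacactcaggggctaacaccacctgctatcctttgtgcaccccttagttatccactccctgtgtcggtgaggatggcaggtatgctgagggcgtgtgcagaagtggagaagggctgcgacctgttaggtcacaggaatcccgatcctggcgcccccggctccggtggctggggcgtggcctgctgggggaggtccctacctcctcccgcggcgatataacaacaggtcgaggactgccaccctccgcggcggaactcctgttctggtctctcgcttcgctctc
Krt8: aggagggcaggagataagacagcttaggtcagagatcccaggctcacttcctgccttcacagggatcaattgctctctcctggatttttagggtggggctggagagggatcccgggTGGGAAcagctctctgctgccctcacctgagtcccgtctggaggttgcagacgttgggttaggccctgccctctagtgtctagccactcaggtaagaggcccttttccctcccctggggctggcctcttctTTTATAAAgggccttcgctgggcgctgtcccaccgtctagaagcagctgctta
Capitals mark matches to 4 motifs searched on both strands: TATAAA, the TATA box; GGGCGG, a GC box; TGGGAA, the core bound by the Notch-pathway factor RBPJ; and GGAATG, a motif of TEAD factors. The Krt8 window held TGGGAA beginning at position -134 and TATAAA at position -1 overlapping a reverse-strand TATAAA at position -3, counted from the start site. No match to the 4 motifs was found in the Krt18 window. Over 27025 mouse promoter windows of the same length, 14.2% held TATAAA, 35.9% GGGCGG, 25.5% TGGGAA and 14.6% GGAATG. Among the 20 members with a window, 3, 8, 7 and 5 held them in that order, so the matches are a description only. Krt19 had no entry.

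**Figure D3:**
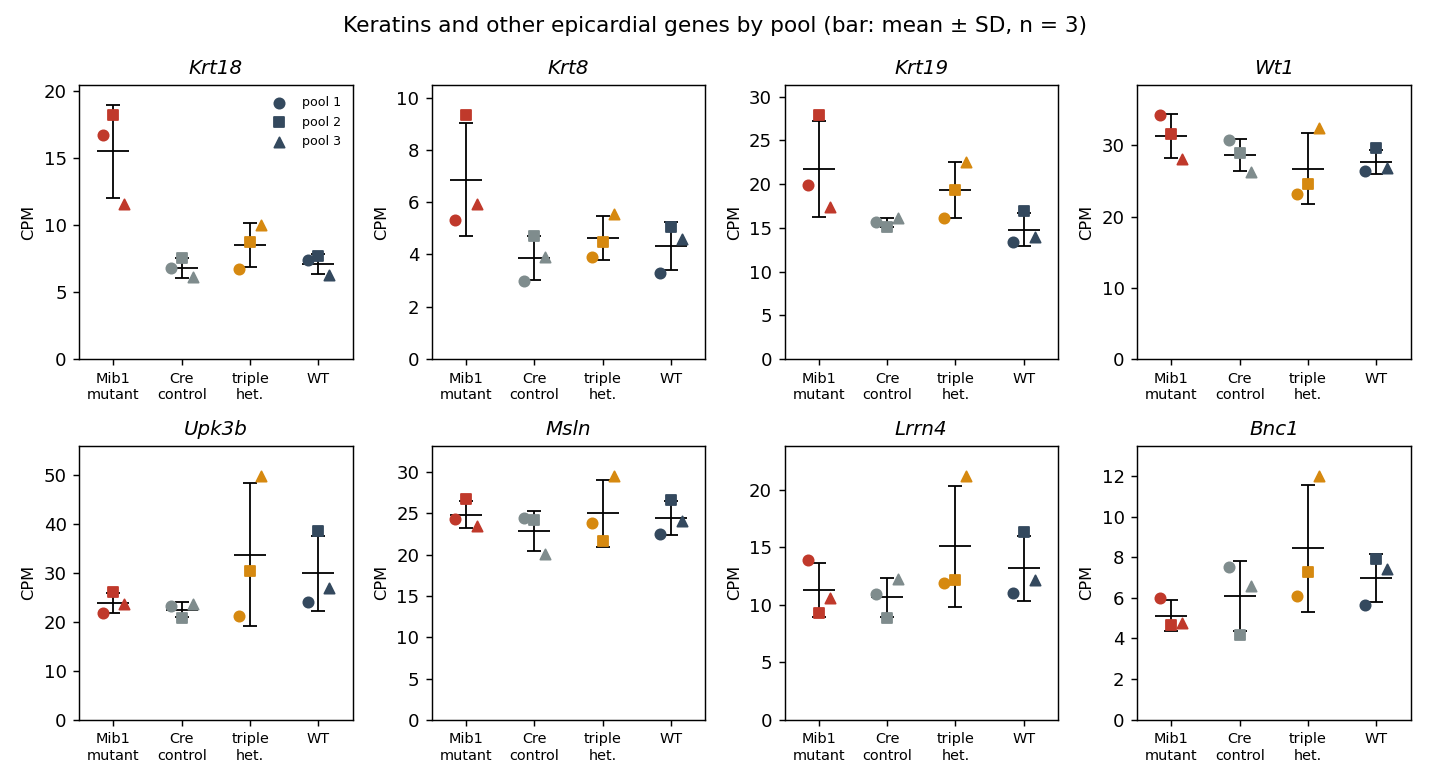
CPM of the 3 keratins and 5 other epicardial genes in each of the 12 pools, with the mean and SD of each genotype (n = 3). The Mib1 mutant pools of Krt18 stand above all others, and replicate 3 of the triple heterozygote is the highest pool for Upk3b (49.8), Msln (29.5), Lrrn4 (21.2) and Bnc1 (11.99).

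The epicardial transcription factors did not pass the threshold in the Mib1 mutant. Wt1, a zinc finger regulator of epicardial transition, had 34.2, 31.6 and 28.1 CPM in the Mib1 mutant, against 30.7, 28.9 and 26.3 CPM in the Cre control, and the pools overlapped (log2 fold change 0.13 ± 0.12, adjusted p = 0.688). Tbx18, a T-box gene of the epicardium, had 69.6, 69.1 and 74.9 CPM in the Mib1 mutant, against 58.9, 69.5 and 56.8 CPM in the Cre control. A single Cre control pool reached the Mib1 mutant level, and the log2 fold change was 0.21 ± 0.09 (adjusted p = 0.281, edgeR). Tcf21, a basic helix-loop-helix gene needed for cardiac fibroblasts, had 28.5, 34.5 and 26.2 CPM in the Mib1 mutant, against 25.3, 28.2 and 22.3 CPM in the Cre control, with overlap (log2 fold change 0.24, adjusted p = 0.450). Bnc1, a zinc finger gene of mesothelium, had 5.99, 4.66 and 4.74 CPM in the Mib1 mutant, against 7.54, 4.16 and 6.56 CPM in the Cre control, and was the epicardial member with the most negative log2 fold change (-0.25, adjusted p = 0.748). The 4 factors summed to 134 to 140 CPM in the Mib1 mutant and 112 to 131 CPM in the Cre control.

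Aldh1a2, the main retinoic acid synthesizing enzyme of the epicardium, had 17.6, 22.5 and 17.5 CPM in the Mib1 mutant, against 19.6, 18.1 and 19.9 CPM in the Cre control. The log2 fold change was -0.00 ± 0.16, with full overlap. Aldh1a1 was at 2.41 to 3.04 CPM in the Mib1 mutant and 2.30 to 2.90 CPM in the Cre control. Pools of the 2 genotypes overlapped for all 5 surface genes. Upk3b and Upk1b, uroplakin family genes of mesothelium, had log2 fold changes of 0.08 and 0.06, Msln, which encodes mesothelin, 0.12, Lrrn4, a leucine-rich repeat gene, 0.07, and Gpm6a, which encodes a membrane glycoprotein, 0.12. Standard errors on these 5 ran from 0.12 to 0.24, and the smallest adjusted p was 0.713.

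Among mesenchymal genes, Prrx2, a paired-related homeobox gene of connective tissue and cushion mesenchyme, was the single member past the threshold. It had 11.1, 12.6 and 14.1 CPM in the Mib1 mutant, against 7.63, 8.95 and 8.72 CPM in the Cre control. It had 10.3, 10.3 and 9.21 CPM in the triple heterozygote, against 5.03, 5.39 and 6.16 CPM in WT. No pool of any genotype overlapped a pool of another, in the order Mib1 mutant, triple heterozygote, Cre control and WT from high to low. Of all 13964 genes, 16 (0.115%) showed no overlap between any pair of the 4 genotypes, and Prrx2 was the single member among them. The means were 12.6 ± 1.51 CPM in the Mib1 mutant and 8.43 ± 0.702 CPM in the Cre control, a log2 fold change of 0.58 ± 0.13 (adjusted p = 0.0429, edgeR). They were 9.91 ± 0.601 CPM in the triple heterozygote and 5.53 ± 0.581 CPM in WT, a log2 fold change of 0.84 ± 0.14 that narrowly missed the threshold (adjusted p = 0.0672). The Cre control was itself 0.61 ± 0.14 above WT on the log2 scale (adjusted p = 0.111). The first and last of these comparisons share the Cre control pools, and the second and last share the WT pools. The difference between the effects of both Mib1 genotypes was -0.27 ± 0.19 (adjusted p = 0.549).

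The Prrx2 call in the Mib1 mutant sat close to the threshold. It was lost in 7 of 16 alternatives, among them 5 of the 6 fits that left out 1 pool (adjusted p from 0.0363 to 0.148) and the fits to the 6 libraries compared (0.150) and without the pools low in Xist (0.116). The log2 fold change in the fits that left out 1 pool ran from 0.48 to 0.65. DESeq2 called Prrx2 in the triple heterozygote (adjusted p = 0.00372), and limma-voom did not (0.0968).

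Prrx1, the paralog of Prrx2, followed another pattern. It had 29.7, 36.2 and 35.4 CPM in the Mib1 mutant, against 27.2, 29.5 and 28.2 CPM in the Cre control. It had 24.0, 25.3 and 31.0 CPM in the triple heterozygote, against 31.2, 36.5 and 31.1 CPM in WT. Pools did not overlap in either comparison, with the Mib1 mutant above its control and the triple heterozygote below WT, both by narrow margins. The lowest Mib1 mutant pool had 29.74 CPM, against 29.49 CPM in the highest Cre control pool. The highest triple heterozygote pool had 31.01 CPM, against 31.07 CPM in the lowest WT pool. The log2 fold changes were 0.25 ± 0.11 (adjusted p = 0.295) and -0.31 ± 0.11 (adjusted p = 0.560). Their difference was 0.56 ± 0.15 (adjusted p = 0.147). None passed after adjustment over all genes.

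The promoter windows of these paralogs are shown because their values ran in opposite directions in the triple heterozygote. Prrx2 lies on chromosome 2 (window chr2:30845117-30845416, plus strand) and Prrx1 on chromosome 1 (window chr1:163313601-163313900, minus strand), from the same RefSeq source and build. In GENCODE M21 Prrx2 starts at base 30834972, upstream of its window, which thus lies inside the annotated gene.
Prrx2: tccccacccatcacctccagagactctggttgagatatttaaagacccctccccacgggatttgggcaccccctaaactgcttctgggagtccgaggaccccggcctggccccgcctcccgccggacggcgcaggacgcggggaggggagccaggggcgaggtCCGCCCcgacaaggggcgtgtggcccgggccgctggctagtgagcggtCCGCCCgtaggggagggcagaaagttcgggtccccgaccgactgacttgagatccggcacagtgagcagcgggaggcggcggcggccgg
Prrx1: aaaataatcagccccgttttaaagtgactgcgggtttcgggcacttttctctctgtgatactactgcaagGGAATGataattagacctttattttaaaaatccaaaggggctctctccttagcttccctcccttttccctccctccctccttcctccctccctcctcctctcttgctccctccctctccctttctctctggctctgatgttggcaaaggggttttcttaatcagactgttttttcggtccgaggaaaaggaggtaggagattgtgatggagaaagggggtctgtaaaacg
Capitals mark the same motifs. The Prrx2 window held GGGCGG on the reverse strand beginning at positions -87 and -39, and the Prrx1 window held GGAATG beginning at position -180.

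**Figure D4:**
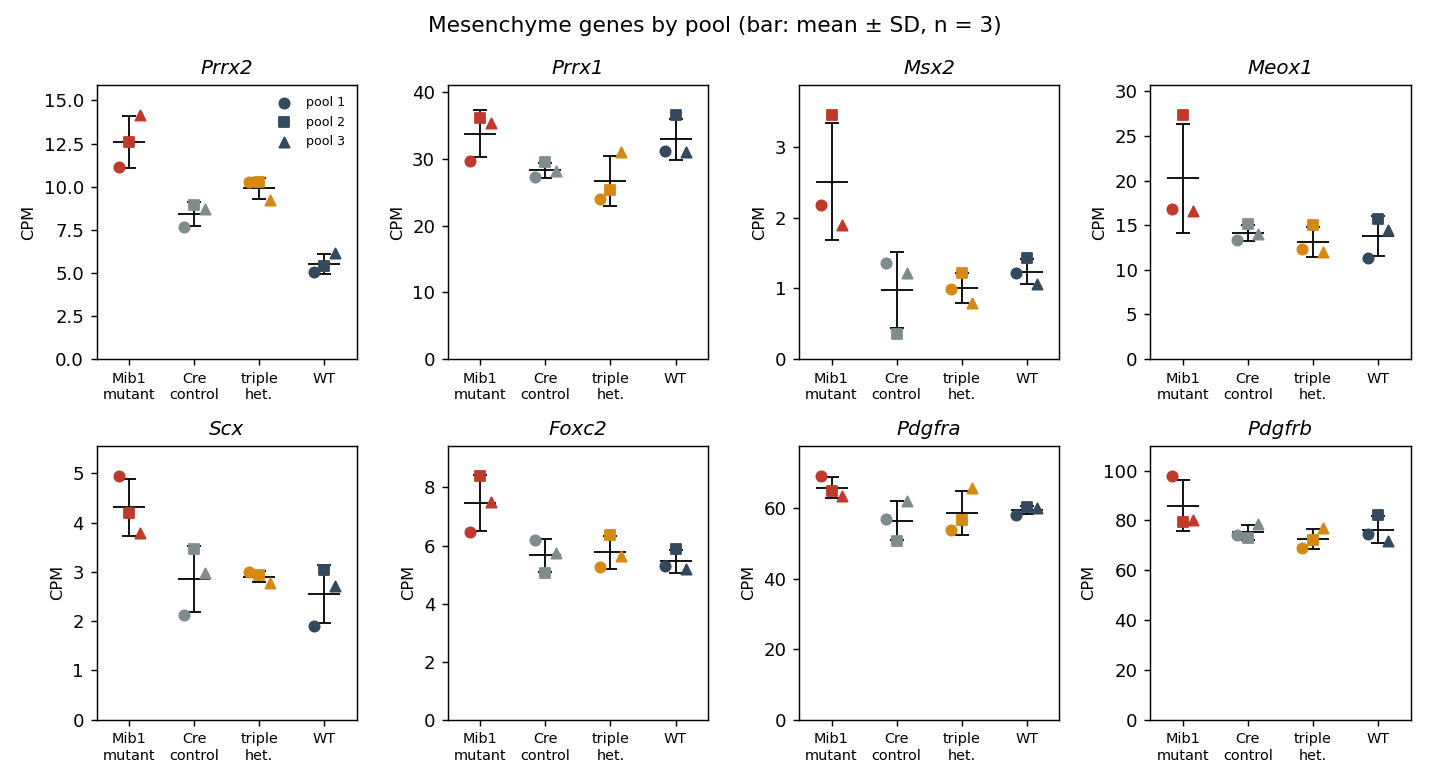
CPM of 8 mesenchyme genes in each of the 12 pools, with the mean and SD of each genotype (n = 3). The 8 shown are those, of 18 tested mesenchymal members, whose Mib1 mutant pools lay above the Cre control pools. Separation in every panel thus follows from the choice of genes, and pools of the other tested mesenchymal members overlapped. Prrx2 is separated between all 4 genotypes.

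The other homeobox genes of the group split. Msx2, a BMP-responsive homeobox gene of cushion mesenchyme, had 2.19, 3.45 and 1.90 CPM in the Mib1 mutant, against 1.35, 0.354 and 1.22 CPM in the Cre control. The pools were apart at these low counts, with a log2 fold change of 1.34 ± 0.40 (adjusted p = 0.117, edgeR). Msx2 was at 0.793 to 1.22 CPM in the triple heterozygote and in WT at 1.07 to 1.43 CPM, and the difference between both effects was 1.60 ± 0.58 (adjusted p = 0.260). Its relative Msx1 overlapped, at 1.90 to 2.70 CPM in the Mib1 mutant and 2.42 to 3.72 CPM in the Cre control (log2 fold change -0.32 ± 0.31). Meox1, a homeobox gene of paraxial mesoderm and activated fibroblasts, had 16.8, 27.3 and 16.6 CPM in the Mib1 mutant, against 13.3, 15.1 and 14.0 CPM in the Cre control. Replicate 2 of the Mib1 mutant was far above its other 2 pools, yet all 3 exceeded the Cre control (log2 fold change 0.51 ± 0.18, adjusted p = 0.189). Without that pool the Meox1 log2 fold change was 0.24.

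Of the basic helix-loop-helix genes, Scx, a regulator of tendon and valve matrix, had 4.94, 4.19 and 3.79 CPM in the Mib1 mutant, against 2.13, 3.45 and 2.98 CPM in the Cre control. Those pools did not overlap, and the log2 fold change was 0.59 ± 0.23 (adjusted p = 0.262), or 0.31 without the pools low in Xist. Twist1, a driver of mesenchymal state and cushion proliferation, overlapped, with 3.61, 6.53 and 5.26 CPM in the Mib1 mutant and 4.54, 4.96 and 4.26 CPM in the Cre control (log2 fold change 0.17 ± 0.24). Twist2, not tested, had 0.760, 1.68 and 0.690 CPM in the Mib1 mutant, against 0.580, 0.266 and 0.473 CPM in the Cre control. It had 0.272, 0.497 and 2.28 CPM in the triple heterozygote, against 0.0867, 0.674 and 0.740 CPM in WT. The Mib1 mutant pools were above the Cre control pools, whereas the ranges of the triple heterozygote and WT overlapped.

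Snai1 and Snai2, zinc finger repressors of cadherin genes in epithelial-mesenchymal transition, overlapped between the Mib1 mutant and the Cre control, with log2 fold changes of 0.28 ± 0.23 and 0.13 ± 0.13. Sox9, needed for cushion expansion and cartilage-like matrix, had 13.7, 19.6 and 15.1 CPM in the Mib1 mutant and 10.6, 16.7 and 12.6 CPM in the Cre control, with overlap (log2 fold change 0.27 ± 0.20). The forkhead genes differed from each other. Foxc2 had 6.46, 8.39 and 7.499 CPM in the Mib1 mutant, against 6.18, 5.05 and 5.75 CPM in the Cre control, with no overlap (log2 fold change 0.40 ± 0.16, adjusted p = 0.254), while Foxc1 overlapped at 16.5 to 20.2 CPM in the Mib1 mutant and 19.0 to 20.1 CPM in the Cre control. Osr1, a zinc finger gene of mesenchymal progenitors, spread from 1.81 to 5.41 CPM in the Mib1 mutant around the Cre control range of 2.22 to 3.28 CPM.

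Both PDGF receptors lay higher in every Mib1 mutant pool. Pdgfra, a receptor of fibroblast precursors whose exons overlap other annotated genes, had 69.0, 64.9 and 63.3 CPM in the Mib1 mutant, against 56.8, 50.6 and 61.8 CPM in the Cre control (log2 fold change 0.22 ± 0.09, adjusted p = 0.267). Pdgfrb had 97.8, 79.5 and 80.3 CPM in the Mib1 mutant, against 74.3, 72.9 and 78.6 CPM in the Cre control (log2 fold change 0.19 ± 0.09, adjusted p = 0.351). The pools were apart for each receptor, by narrow margins, and neither passed the threshold. The Pdgfrb log2 fold change was 0.08 without replicate 1 of the Mib1 mutant and 0.07 without the pools low in Xist, and that of Pdgfra was 0.15 without replicate 2 of the Cre control. The 4 genes for PDGF ligands had 0 calls, with positive log2 fold changes in all 4 (median 0.13).

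No gene for a secreted product passed the threshold, and pools overlapped for all 3. Dpt had 35.6, 48.5 and 25.6 CPM in the Mib1 mutant, against 35.4, 48.4 and 33.1 CPM in the Cre control, with full overlap. Cthrc1, a collagen triple helix repeat protein of activated fibroblasts and cushions, had 3.33, 9.14 and 4.40 CPM in the Mib1 mutant, against 3.19, 3.45 and 4.26 CPM in the Cre control, where a single Mib1 mutant pool set the higher mean. Clec3b, which encodes the plasminogen-binding lectin tetranectin, had 0.190, 0.653 and 1.03 CPM in the Mib1 mutant, against 2.03, 3.28 and 0.744 CPM in the Cre control. It was the single member lower at an unadjusted p (log2 fold change -1.62 ± 0.59, adjusted p = 0.209, edgeR), and its pools overlapped. The log2 fold change was -1.06 without replicate 2 of the Cre control and -1.22 without replicate 1 of the Mib1 mutant, and in neither fit was the unadjusted p under 0.05.

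In the triple heterozygote no member passed the threshold against WT, and 3 of 13964 genes (0.0215%) did. At an unadjusted p under 0.05, 4 members were higher (Krt19, Prrx2, Osr1 and Foxc1) and Prrx1 was lower, against 3.82% and 4.84% of all genes. DESeq2 called 1 member, Prrx2, and limma-voom 0. Log2 fold changes were positive for 25 of 32 members, with a median of 0.17 against 0.00 over all genes, of which 49.9% were positive. Pools lay entirely above WT for 3 members, Prrx2, Snai1 and Foxc1, and entirely below it for Prrx1, against 7.67% and 9.19% of all genes. The triple heterozygote shares the R530X allele with the Mib1 mutant.

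Foxc1, a forkhead gene of mesoderm and valve mesenchyme, had 23.3, 21.9 and 24.1 CPM in the triple heterozygote, against 20.1, 19.0 and 18.1 CPM in WT. The pools were tight and apart, with a log2 fold change of 0.27 ± 0.10 (adjusted p = 0.559, edgeR). The difference between the Mib1 mutant effect and this one was -0.32 ± 0.14 (adjusted p = 0.326). Snai1 had 4.99, 4.97 and 4.46 CPM in the triple heterozygote, against 2.77, 4.38 and 3.62 CPM in WT, apart by a narrow margin (log2 fold change 0.42 ± 0.23, adjusted p = 0.606). Osr1 had 2.99, 4.75 and 11.7 CPM in the triple heterozygote, against 1.82, 4.55 and 2.79 CPM in WT. Its log2 fold change of 1.05 ± 0.46 (adjusted p = 0.565) rested on replicate 3 of the triple heterozygote, and was 0.37 without it.

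That pool was high in most of the epicardial group. Replicate 3 of the triple heterozygote was the highest of the 12 pools for all 5 surface genes, for both retinaldehyde dehydrogenases and for 8 of 14 epicardial members, and the highest of its genotype for 12 of the 14. The share of all genes highest in this pool was not computed. These counts therefore cannot show whether the pool was high for the members in particular. Upk3b had 21.1, 30.4 and 49.8 CPM in the triple heterozygote, against 24.2, 38.7 and 27.0 CPM in WT. Lrrn4 had 11.9, 12.2 and 21.2 CPM in the triple heterozygote, against 11.01, 16.3 and 12.2 CPM in WT. Bnc1 had 6.08, 7.28 and 11.99 CPM in the triple heterozygote, against 5.63, 7.92 and 7.40 CPM in WT. In each of these, the first 2 triple heterozygote pools lay within or close to the WT range. On the log2(CPM + 1) scale, the mean deviation of epicardial members from their genotype mean was 0.31 in replicate 3 and -0.23 in replicate 1 of the triple heterozygote.

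Other pools departed in their own ways. Replicate 2 of WT was the highest WT pool for 13 of 14 epicardial members and for 26 of all 32, with a mean epicardial deviation of 0.19, and it also held the most liver transcripts, with Alb at 9.60 CPM and Afp at 10.4 CPM. Replicate 2 of the Mib1 mutant was the highest of 12 pools for 13 of 32 members, 9 of them mesenchymal. Its mean deviation was 0.23 over mesenchymal members and 0.35 over keratins, but 0.02 over the 11 other epicardial members. The same pool was highest of its genotype for Myl7, an atrial myosin light chain (315 CPM, against 195 and 211 CPM in the other 2 pools), Tbx3, a conduction system and cushion gene (17.2 against 11.02 and 8.45 CPM), and Col2a1, a cartilage-type collagen of valves (15.2 against 5.99 and 11.5 CPM). Bmp10, a growth factor of atrial and trabecular muscle, went the other way in that pool (2.33 against 5.51 and 5.69 CPM). The 6 atrial genes summed to 1220 CPM there, against 784 and 1092 CPM. All 3 Mib1 mutant pools exceeded the Cre control range of Myl7, 153 to 164 CPM. The 6 atrial genes together did not separate these genotypes, with sums of 784 to 1220 CPM in the Mib1 mutant and 972 to 1058 CPM in the Cre control. Log2 fold changes were positive for 3 of the 6 and negative for 3, with Bmp10 lower past the threshold (-2.62, adjusted p = 0.000273, edgeR). For the counts of members highest in these pools, too, no share over all genes was computed. The part of tissue composition in these deviations was not tested.

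**Figure D5:**
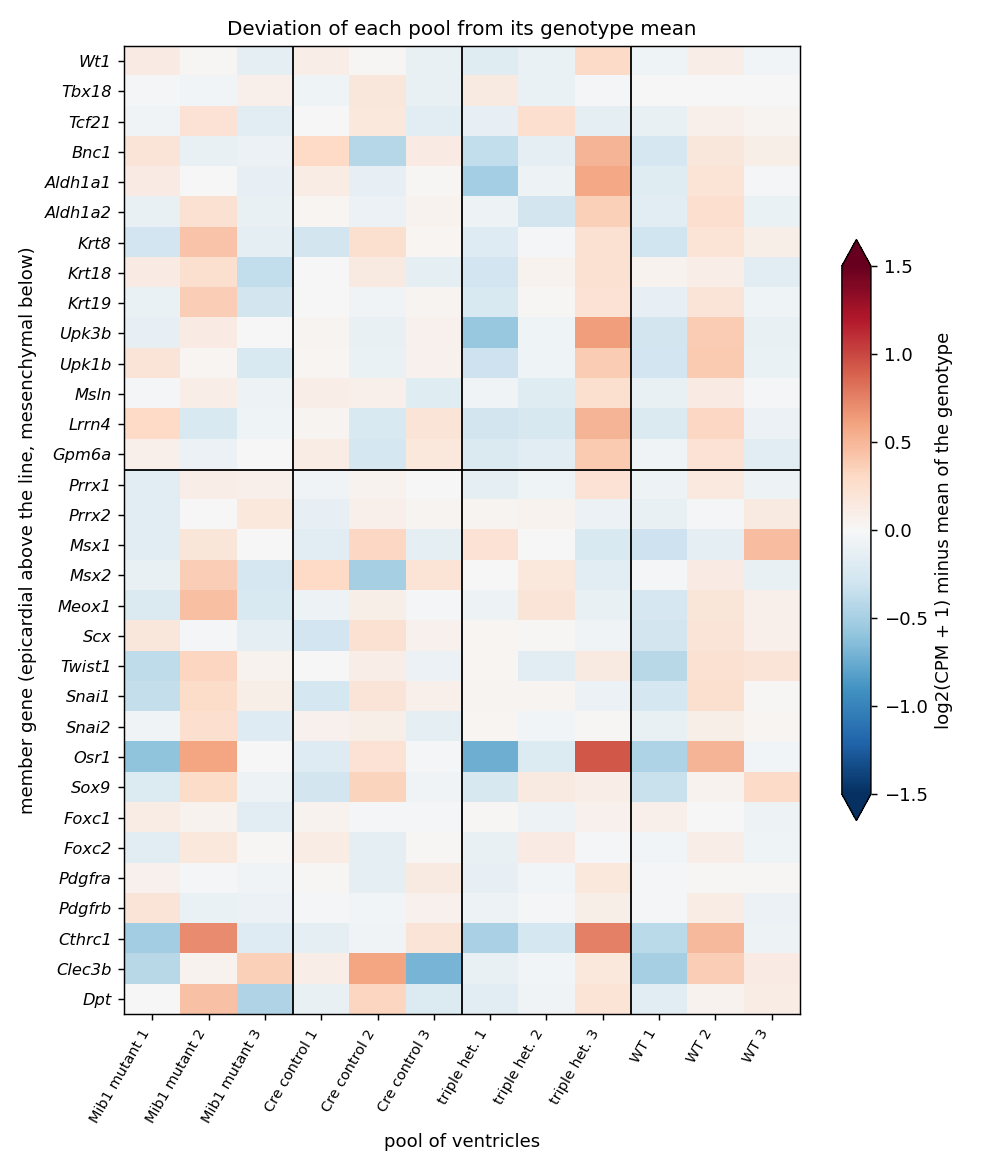
Deviation of each pool from the mean of its genotype on the log2(CPM + 1) scale, for 32 members (epicardial above the horizontal line, mesenchymal below). Replicate 3 of the triple heterozygote is high on average over epicardial rows (mean 0.31), and replicate 2 of the Mib1 mutant over keratin and mesenchymal rows (means 0.35 and 0.23). Among the mesenchymal rows, the PDGF receptors are not high in the latter pool (mean -0.06).

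Between the Cre control and WT no member passed the threshold, where 0.279% of all genes did, and 1 member, Prrx2, had an unadjusted p under 0.05, against 8.43% of all genes. DESeq2 and limma-voom also called 0. The Cre control pools lay above WT for Prrx2 and below it for Upk3b and Prrx1, against 8.9% and 10.2% of all genes. Upk3b had 23.2, 20.8 and 23.7 CPM in the Cre control, against 24.2, 38.7 and 27.0 CPM in WT (log2 fold change -0.41 ± 0.24, adjusted p = 0.661). In the test of the difference between both Mib1 effects no member passed, against 0.516% of all genes, and DESeq2 and limma-voom called 0. At an unadjusted p under 0.05, Krt18, Prrx1, Msx2 and Meox1 were more positive in the Mib1 mutant and Foxc1 and Clec3b more negative, against 7.63% and 6.17% of all genes.

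Genes related to the members by pathway gave the following counts in the first comparison, Mib1 mutant and Cre control. Of 25 other valve and cushion genes, 0 passed the threshold in either direction, 23 had positive log2 fold changes (median 0.34), 12 were higher and 1 lower at an unadjusted p, and for 11 the pools lay entirely above. Over all genes, 51.2% were positive, 7.35% higher and 6.65% lower at an unadjusted p, and 8.86% had pools entirely above. In the triple heterozygote against WT, 16 of the 25 were positive, with a median of 0.05, against 49.9% of all genes. Of 19 tested other epicardial and mesothelial genes, 0 passed, 13 were positive (median 0.18), and 4 were higher and 0 lower at an unadjusted p. Of 20 tested TGF-beta, BMP and epithelial-mesenchymal transition genes, 0 passed, 18 were positive (median 0.13), and 7 were higher and 0 lower at an unadjusted p, to be read against the same shares and a median of 0.00 over all genes.

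Of the muscle and mural markers, Tagln, an actin-binding protein of smooth muscle and immature cardiomyocytes, had 53.5, 93.0 and 70.2 CPM in the Mib1 mutant, against 28.2, 27.1 and 28.7 CPM in the Cre control (log2 fold change 1.37 ± 0.15, adjusted p = 0.000179). It was the single call among 10 smooth muscle and pericyte genes, of which 6 had positive and 4 negative log2 fold changes (median 0.13). The 10 summed to 2131 to 2800 CPM in the Mib1 mutant and 2189 to 2258 CPM in the Cre control, with overlap. The part of these cells in the PDGF receptor values was not tested.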

How the data were processed

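Poly(A) RNA libraries from a directional kit were sequenced as single 60-base reads, per the labels' protocols. The values are the expected counts per gene that the authors made with RSEM, per the submitters' processing notes, and deposited as 1 table. The same notes name bcl2fastq 2.20.0.422, cutadapt, limma and GRCm38. The strand setting of the counting is not given in the sources used here. Genes were named by GENCODE M21 identifiers (36429 of 38293 matched). Exons of Tbx18, Bnc1, Krt8, Twist2 and Pdgfra overlap those of other genes, so reads may have been split there.

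Counts, of which 9.64% of values were not whole, were rounded and tested with edgeR 4.0.16 (R 4.3.3) by the quasi-likelihood F-test with TMM scaling and filterByExpr. All 12 libraries were fitted as 4 groups (8 residual degrees of freedom), and p was adjusted by Benjamini-Hochberg over 13964 genes with a threshold of 0.05. The SE was taken as the log2 fold change over the root of F. CPM used TMM-scaled totals, and RPKM the summed exon length. The 12 columns were matched to samples by name; those named MUT were taken as the triple heterozygote because their name holds neither flox nor Cre. Alternatives used limma 3.58.1 (voom), DESeq2 1.42.0, other filters, a replicate block, a covariate for sex mix and left-out pools. Scripts were tested on simulated data.

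Members and lists were chosen with earlier results of these data known. Values were given pool by pool for members past the threshold, members at an unadjusted p under 0.05 in a comparison, and leading markers of each role; a few more were chosen after their values were seen. Pools are separate samples per the labels, but whether litters were shared is not stated, so p-values measure the spread between these pools.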

Additional observations from a re-analysis of the deposited data

Results flagged for a closer look

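Prrx1 lay above its control in all 3 Mib1 mutant pools and below WT in all 3 triple heterozygote pools, both by narrow margins. The difference between both effects was 0.56 on the log2 scale, with an adjusted p of 0.147 (edgeR), so it did not pass.

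The effects of the Mib1 mutant and of the triple heterozygote differed past the threshold in 8 genes of the lists for other cell types. They comprised 5 of 8 tested erythroid genes, of which the 4 with the smallest p are named, and 3 others. The difference, Mib1 mutant effect minus triple heterozygote effect on the log2 scale, was 1.10 for Tagln (adjusted p = 0.0289, edgeR) and -2.34 for Bmp10, a growth factor of atrial and trabecular muscle (0.0136). It was -1.03 for Hba-a2 (0.00659), -0.93 for Hba-a1 (0.0184) and -0.76 for Hbb-bs (0.0307), which encode globins, -0.90 for Alas2 of erythroid haem synthesis (0.0350) and -1.20 for Lyz2, the lysozyme of myeloid cells (0.0301). None of these is among the 34 listed members.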

How the results depend on the processing

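Over 34 results for single genes under 570 combinations with alternatives, none reversed, 503 kept their side of the threshold, 63 lost a call and 4 gained one. The members called in the Mib1 mutant, 2 in all, came to 1 with only the libraries compared, 0 without the pools low in Xist (replicate 1 of the Mib1 mutant and of the Cre control), and 1 to 2 with each pool left out. In the triple heterozygote, 0 members were called, but 1, Prrx2, with DESeq2, with no filter on low counts (adjusted p = 0.00621) and without the pools low in Xist (0.0420). It was 0 with each pool left out. No member was called under any alternative for the difference between both effects or for the Cre control against WT. Krt8 gained a call with the replicate block alone (adjusted p = 0.0453). The causes were not tested.

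Counts over all genes moved more. The 210 called in the Mib1 mutant became 416 with DESeq2, 476 with no filter, 318 with the replicate block, 93 with only the libraries compared, 110 without the pools low in Xist, and 116 to 415 with a pool left out; the highest came without Mib1 mutant replicate 2. The 3 in the triple heterozygote became 22 with DESeq2, 54 with no filter, 5 with the sex mix covariate, 1 without erythroid genes, 10 with only the libraries compared, 7 without the pools low in Xist, and 1 to 3 with a pool left out. The 72 for the difference became 167, 246, 109 and 41 with DESeq2, no filter, the replicate block and without the pools low in Xist, and 28 to 233 with a pool left out. The 39 for the Cre control against WT became 82, 144, 59 and 68 with DESeq2, no filter, the replicate block and only the libraries compared, and 23 to 42 with a pool left out.

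Correlations of same-numbered deviations were 0.125, 0.166 and 0.014 for the Mib1 mutant and Cre control. They were 0.091, -0.006 and -0.061 for the triple heterozygote and WT. Pools with different numbers gave -0.210 to 0.113 in the first comparison and -0.152 to 0.161 in the second. These values do not settle whether replicate numbers pair the pools, and the main fit used no replicate block. With the block 318 genes were called in the Mib1 mutant, against 210 in the main fit. With 3 pools a genotype and 1 read worth up to 0.099 CPM, members near 1 CPM (Msx2, Clec3b, Twist2) rested on few reads.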
